A study of Mus musculus with 9 samples.

Results

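Neat1, Malat1, Meg3, Rian, Mirg, Miat and Pantr1 are long noncoding RNAs that stay in the nucleus, are abundant in neurons, or both. They were chosen by symbol, as 7 of the 52550 genes in the transcript tables, and all 7 passed the filter on low values, which kept 17080 genes (a TPM of at least 1 in at least 3 of 9 libraries). TPM is the length-normalized share of a transcript, and the TPM of a gene is the sum over its transcripts. The 7 genes had 69 annotated transcripts in the tables, of which 57 passed the same filter and 7 reached a TPM of 1 in no library.

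The 9 libraries, 3 for each of 3 groups, hold cortical RNA of C57BL/6N males aged 9 to 12 weeks. The knockdown group (replicates 2, 3 and 4) received a locked nucleic acid antisense oligo against eRNA_06347, an enhancer RNA, through the lateral ventricles. The control oligo group (replicates 1, 2 and 3) received a negative control oligo by the same route. Both groups then underwent 1 h of middle cerebral artery occlusion (MCAO), a filament model of stroke, and 6 h of reperfusion, and the infarcted cortex on the occluded side was taken. The sham group (replicates 1, 2 and 3) had the neck surgery without the filament. The labels name no oligo for it, and its libraries were taken over from a data set the group had made before. The labels do not say whether a library is 1 animal or a pool, so p-values measure the spread between these libraries. eRNA_06347 itself was not analysed here.

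Neat1 is made in a short and a long form that start at the same place. The long form is the scaffold of paraspeckles, nuclear bodies that hold RNA-binding proteins. Malat1, its neighbour on the same strand, collects in nuclear speckles, where splicing factors are stored. Meg3, Rian and Mirg lie one after the other in the imprinted Dlk1-Dio3 region and are expressed from the maternal chromosome. Rian hosts C/D snoRNAs and Mirg hosts a large cluster of microRNAs. Miat, also called Gomafu, is a nuclear RNA of neurons that binds splicing factors, and Pantr1 is transcribed next to Pou3f3, a transcription factor gene of cortical neurons.

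In GRCm38, Neat1 spans chr19:5824708-5845478 and Malat1 chr19:5795690-5802672, both on the minus strand. Meg3 spans chr12:109541001-109571726, Rian chr12:109603940-109661716 and Mirg chr12:109729764-109749460, all on the plus strand. Miat spans chr5:112213228-112229395 and Pantr1 chr1:42590782-42694842, both on the minus strand. GENCODE M21 types 6 of them as lincRNA and Rian as a processed transcript.

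How these RNAs end matters for what a poly(A)-selected library holds. The knockdown and control oligo libraries were poly(A)-selected, while the preparation of the sham libraries is not given in the sources used here. The short Neat1 form Neat1-202, and the 3′ forms Rian-202, Mirg-207 and Meg3-209, end after a polyadenylation signal. Their last 60 bases are shown 5′ to 3′ on the transcript strand, with AATAAA in capitals (GENCODE M21, GRCm38, chr19:5842307-5842366, chr12:109661657-109661716, chr12:109749399-109749458 and chr12:109571667-109571726 in that order).
Neat1-202: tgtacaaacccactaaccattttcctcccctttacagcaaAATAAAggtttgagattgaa
Rian-202: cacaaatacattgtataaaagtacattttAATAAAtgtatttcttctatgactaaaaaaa
Mirg-207: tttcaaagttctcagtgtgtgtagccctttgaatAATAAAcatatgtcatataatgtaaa
Meg3-209: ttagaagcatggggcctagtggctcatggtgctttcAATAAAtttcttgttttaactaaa
Searched on the transcript strand, AATAAA lay in the last 50 bases of 27 of the 69 transcripts that GENCODE M21 lists for the 7 genes, and of 23.5% of the 30258 long noncoding transcripts in GENCODE M21. Of the other 3′ forms of Rian, Rian-201 has it too. Rian-204, Rian-208, Rian-211 and Rian-213 have no such signal in their last 50 bases. Meg3-205, an abundant short Meg3 form, has no such signal in its last 50 bases either. Its last 30 bases and the 30 genomic bases that follow are shown with the adenosines that follow the annotated end in capitals (RefSeq, GRCm38.p6, chr12:109545290-109545349).
Meg3-205: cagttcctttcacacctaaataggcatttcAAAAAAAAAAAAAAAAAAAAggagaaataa
The run right after the annotated end holds 20 adenosines.

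Malat1 and long Neat1 end differently. Both are cut by RNase P at a tRNA-like structure, and their 3′ ends are protected by a triple helix between 2 U-rich motifs and an A-rich end in place of a poly(A) tail. The stretches below are shown on the transcript strand, with the first and second U-rich motif and the A-rich end in capitals (chr19:5824708-5824807 for Neat1 and chr19:5795952-5796075 for Malat1).
Neat1-201: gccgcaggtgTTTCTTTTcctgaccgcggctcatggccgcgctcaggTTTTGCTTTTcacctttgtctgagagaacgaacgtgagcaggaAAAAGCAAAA
Malat1-201: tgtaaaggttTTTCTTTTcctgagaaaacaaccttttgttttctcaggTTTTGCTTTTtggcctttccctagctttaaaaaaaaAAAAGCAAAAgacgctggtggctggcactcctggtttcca
A search of 141767 GENCODE M21 transcripts for these 3 motifs in this order within 120 bases, on the transcript strand, found 2, or 0.00141%, and these were Neat1-201 and Malat1-201. The motifs are those of these 2 transcripts, so finding both was given. The search shows only that no other transcript held them. The Neat1 annotation stops at the last base of the third motif, and the Malat1 annotation runs on into the part that is cut off. AATAAA lay in the last 50 bases of the annotated Malat1-201, past the stretch shown, but not in those of Neat1-201.

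The sham data set differed from the MCAO data set in depth and in the RNA classes it held. Aligned bases, read from the ratio of coverage to FPKM, came to 4.92 to 5.42 Gb in knockdown, 5.00 to 5.52 Gb in control oligo and 2.98 to 3.18 Gb in sham libraries. Small structural RNAs, which carry no poly(A) tail (Rn7s1, Rn7s2, Rn7sk, Rmrp, Rpph1 and Terc), summed to 76.6 to 127 TPM in knockdown and 172 to 263 TPM in control oligo libraries, against 384039 to 438804 TPM in sham libraries. Replication-dependent histone mRNAs, which also lack a tail, summed to 7.85 to 10.2 TPM in knockdown and 5.44 to 5.73 TPM in control oligo libraries, against 168 to 254 TPM in sham libraries. In single-exon transcripts with few reads, the most frequent number of aligned bases was 282 in every MCAO library and 51 in every sham library. Stroke, data set and oligo all differed between the MCAO groups and the sham group, as did the RNA classes held, and for every value below these cannot be told apart. All 5 markers of cortical excitatory neurons were present in every library, with 295 to 390 TPM of Slc17a7 in knockdown, 321 to 497 TPM in control oligo and 213 to 242 TPM in sham libraries. Summed neutrophil markers (S100a8, S100a9, Retnlg and Ly6g) ranged over 70.8 to 1353 TPM in knockdown, 28.6 to 331 TPM in control oligo and 1.53 to 5.17 TPM in sham libraries. Knockdown replicate 4 held the highest value, with 480 TPM of S100a8, against 23.7 and 26.5 TPM in the other knockdown libraries, and 109, 10.3 and 118 TPM in control oligo replicates 1, 2 and 3. Ttr of the choroid plexus reached 56.7 TPM in knockdown replicate 3 and at most 1.81 TPM in the other 8 libraries.

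On the TPM scale, which is per length, Rian was the most abundant of the 7 genes in both MCAO groups, with 540 ± 63.8 TPM in knockdown and 619 ± 271 TPM in control oligo libraries (SD, n = 3 each). Malat1 was the most abundant in sham libraries, at 866 ± 313 TPM (SD, n = 3), where Neat1 was the least abundant at 1.39 ± 0.648 TPM. By group mean Neat1 was also the least abundant in both MCAO groups, at 24.1 ± 25.0 TPM in knockdown and 27.7 ± 2.65 TPM in control oligo libraries. The spread between libraries was widest for Neat1 and Malat1 in the knockdown group, where the SD was 104% and 99.8% of the mean. The plot of gene TPM by library shows all 63 values.

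**Figure D1:**
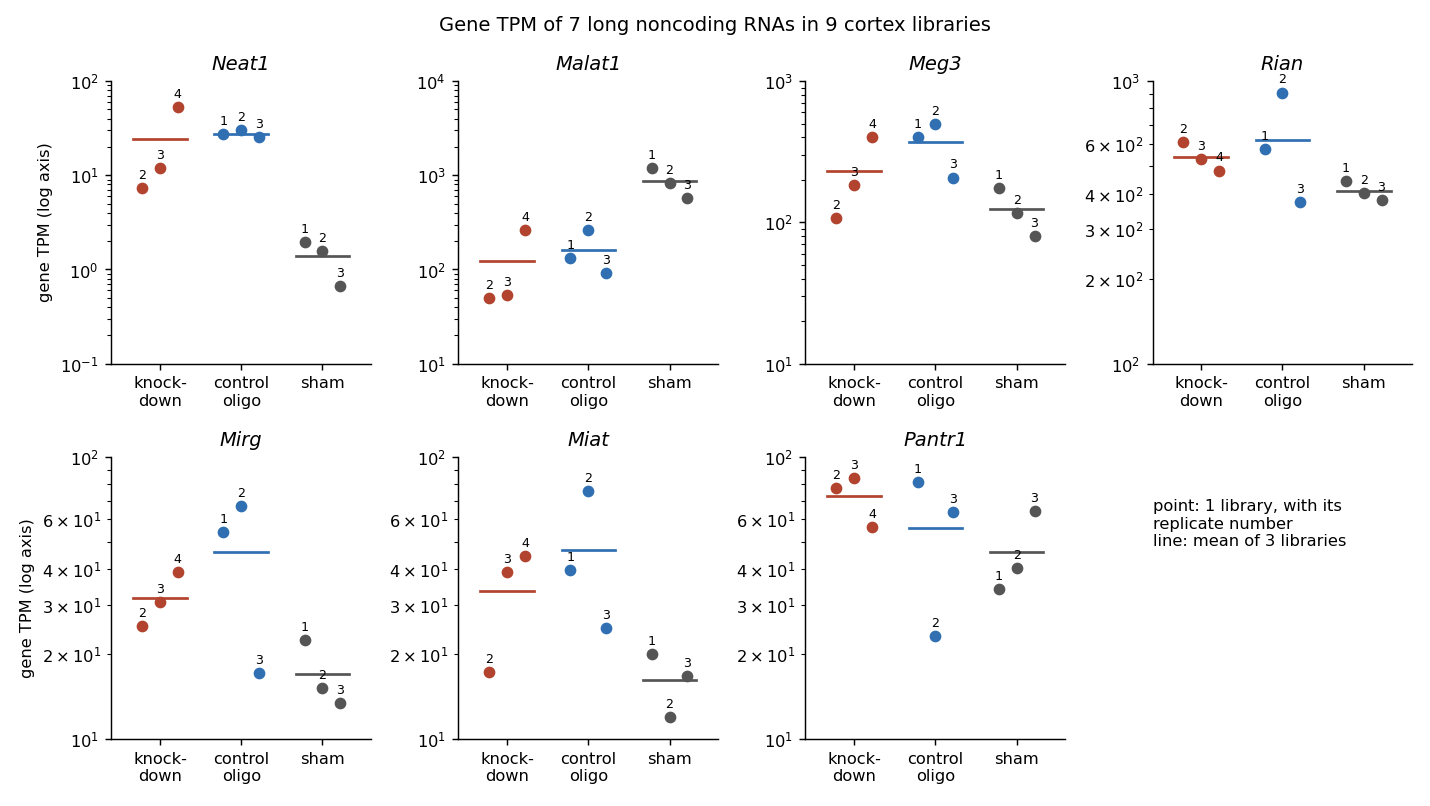
Gene TPM (log axis) of each long noncoding RNA in the 9 libraries, with knockdown left, control oligo in the middle and sham right. Points are libraries with their replicate numbers and lines are group means; the Neat1 libraries of both MCAO groups lie above the sham libraries, and the Malat1 libraries below them.

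None of the 7 genes differed between knockdown and control oligo libraries at an adjusted p under 0.05 (limma on log2(TPM + 1), Benjamini-Hochberg adjusted over 17080 genes), nor at an unadjusted p under 0.05. In this comparison 2 of the 17080 genes (0.0117%) passed, 0.00585% higher and 0.00585% lower, and 321 had an unadjusted p under 0.05. The 7 log2 differences ran from -0.80 to 0.52 with a median of -0.42, beside a median of 0.06 over all genes. After median-ratio scaling 0 of the 7 passed, against 0.0176% of all genes (0.0117% higher and 0.00585% lower). The groups overlapped for each of the 7 genes, while 3.6% of all genes lay wholly higher and 1.8% wholly lower in knockdown libraries. Of their 57 kept transcripts, 0 passed, against 0.0677% of 39894 transcripts (0.0501% higher and 0.0175% lower), and 0 after scaling, against 0.0551% (0.0376% higher and 0.0175% lower). A p that misses the threshold does not show that the groups were alike, and the SEs ran from 0.32 for Rian to 0.70 for Malat1 on the log2 scale.

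Against sham, 5 of the 7 genes passed in the knockdown group and 5 in the control oligo group. In knockdown libraries Neat1, Mirg, Miat and Pantr1 were higher and Malat1 lower than in sham libraries, in a comparison where 65.3% of all genes passed (52.7% higher and 12.5% lower). In control oligo libraries Neat1, Meg3, Mirg and Miat were higher and Malat1 lower, where 65.4% of all genes passed (52.6% higher and 12.8% lower). The share of the 7 that passed is thus near the background. The 2 comparisons share their sham libraries, so they are not independent of each other. The median gene was itself 0.61 higher in knockdown and 0.56 higher in control oligo than in sham libraries on the log2 scale. After median-ratio scaling, which sets the median gene near 0, Neat1 and Malat1 passed in the knockdown group (49.8% of all genes passed, 22.7% higher and 27.1% lower), and Neat1, Malat1 and Meg3 in the control oligo group (55.3% of all genes passed, 26.1% higher and 29.2% lower). Of the 57 kept transcripts, 8 were higher and 12 lower in knockdown than in sham libraries, where 34.0% of all transcripts passed (26.5% higher and 7.5% lower), and 17 were higher and 13 lower in control oligo libraries, where 35.3% passed (27.7% higher and 7.61% lower). After scaling, 4 were higher and 15 lower in knockdown (24.0% of all transcripts passed, 10.5% higher and 13.5% lower), and 10 higher and 15 lower in control oligo libraries (26.8% passed, 12.6% higher and 14.2% lower).

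**Figure D2:**
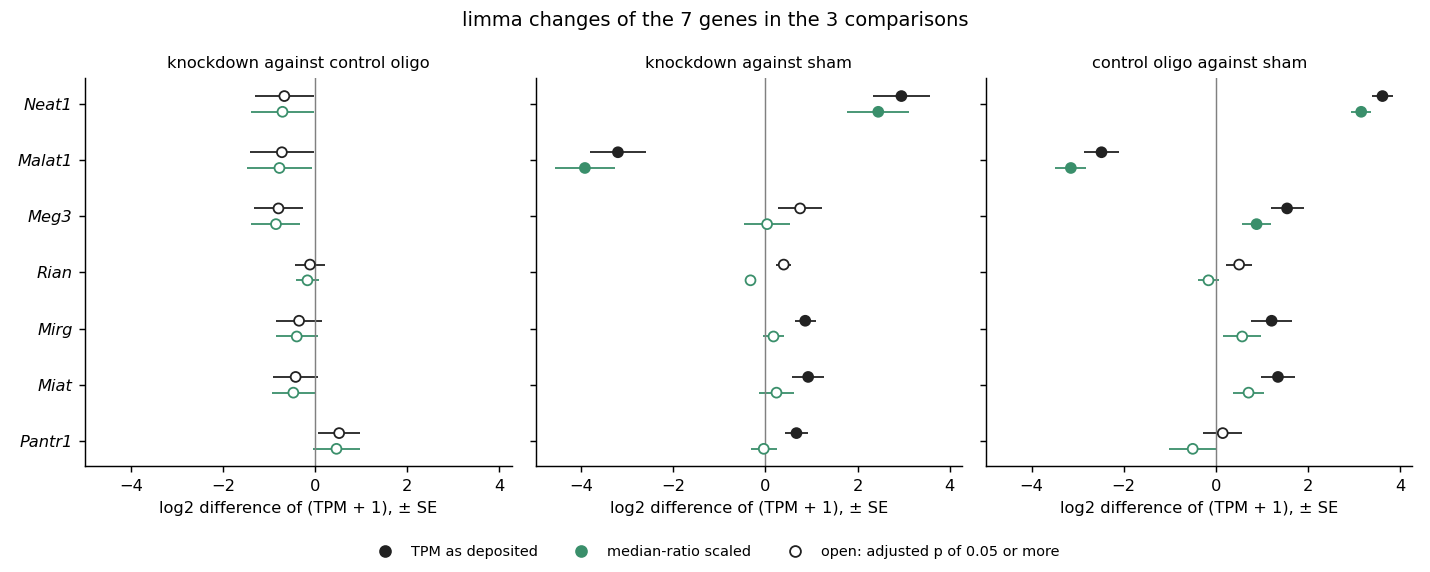
Log2 difference of (TPM + 1) with its SE for each gene in the 3 comparisons (x axis), as deposited in black and after median-ratio scaling in green, with filled symbols for an adjusted p under 0.05. Neat1 and Malat1 lie farthest from 0 in both comparisons with sham, and in opposite directions; no symbol is filled for knockdown against control oligo.

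Neat1 was higher in both MCAO groups than in sham. It measured 7.34, 12.0 and 52.8 TPM in knockdown replicates 2, 3 and 4, against 27.4, 30.5 and 25.2 TPM in control oligo replicates 1, 2 and 3, and 1.93, 1.56 and 0.673 TPM in sham replicates 1, 2 and 3. The knockdown libraries thus lay on both sides of the control oligo libraries, and every MCAO library lay above every sham library, as did 57.8% of all genes in knockdown and 56.2% in control oligo libraries. Mean Neat1 TPM was 17.3 times the sham mean in knockdown and 19.9 times in control oligo libraries. The log2 difference from sham was 2.95 ± 0.62 in knockdown (SE, adjusted p = 0.00401) and 3.62 ± 0.23 in control oligo libraries (adjusted p = 8e-06). It was 2.45 (adjusted p = 0.0206) and 3.16 (adjusted p = 3.42e-05) after median-ratio scaling. Knockdown against control oligo gave -0.67 ± 0.65 (SE, adjusted p = 1), with -1.46 without knockdown replicate 4 (adjusted p = 0.776) and -0.11 without knockdown replicate 2 (adjusted p = 1). In these bulk samples, fewer cells of a type and less RNA per cell cannot be told apart.

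Neat1-201, the long paraspeckle scaffold of 20771 bases in 1 exon, measured 7.13, 8.87 and 25.2 TPM in knockdown, 11.7, 14.7 and 7.98 TPM in control oligo and 1.31, 0.904 and 0.673 TPM in sham libraries. All MCAO libraries lay above all sham libraries for the long form. Its log2 difference from sham was 2.72 ± 0.47 in knockdown (SE, adjusted p = 0.00706 over 39894 transcripts) and 2.64 ± 0.28 in control oligo libraries (adjusted p = 0.0015). Neat1-202, the short polyadenylated form of 3004 bases, was listed at 0 in knockdown replicate 2 and measured 2.26 and 23.0 TPM in knockdown replicates 3 and 4, against 14.1, 13.4 and 16.1 TPM in control oligo libraries and 0.624 and 0.657 TPM in sham replicates 1 and 2, with sham replicate 3 listed at 0. The short form was thus low in knockdown replicates 2 and 3, high in knockdown replicate 4 and even among control oligo libraries. It was 3.48 ± 0.27 higher in control oligo than in sham libraries on the log2 scale (SE, adjusted p = 0.000554). Knockdown libraries differed from control oligo libraries by -1.86 ± 1.09 (adjusted p = 1) and from sham libraries by 1.62 ± 1.10 (adjusted p = 0.289). Neat1-203, of 1030 bases, measured 0.216, 0.880 and 4.59 TPM in knockdown and 1.53, 2.40 and 1.15 TPM in control oligo libraries, and was listed at 0 in all sham libraries.

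The long form made up 97.1%, 73.9% and 47.7% of Neat1 TPM in knockdown replicates 2, 3 and 4, against 42.7%, 48.1% and 31.7% in control oligo and 67.7%, 57.9% and 100% in sham libraries. The control oligo libraries were lowest as a group, below every sham library, and 1 of 3 knockdown libraries fell in their range. The mean share was 72.9% ± 24.7 in knockdown and 40.8% ± 8.37 in control oligo libraries (SD, n = 3 each, difference 32.04 points, exact two-sided permutation p = 0.2). Against the sham mean of 75.2% ± 22.01, the control oligo share differed by -34.4 points (exact permutation p = 0.1, the smallest that 3 against 3 libraries allow) and the knockdown share by -2.36 points (exact permutation p = 0.9). Without 1 library the difference of knockdown from control oligo ran from 19.95 (without knockdown replicate 2) to 44.6 points, and that of control oligo from sham from -43.04 to -22.01 points (without sham replicate 3). As a share of aligned bases in place of TPM, the long form differed by 11.4 points between knockdown and control oligo (exact permutation p = 0.2), by -11.6 points between control oligo and sham (exact permutation p = 0.1) and by -0.198 points between knockdown and sham libraries (exact permutation p = 0.9). Sham Neat1 rested on 34.8 to 68.6 aligned kb in all, against 374 to 1519 kb in knockdown and 609 to 900 kb in control oligo libraries. The depth on the long form was 18.0 to 64.1 reads per base in knockdown, 22.6 to 38.0 in control oligo and 1.68 to 3.09 in sham libraries. The forms share their 5′ part, so each split is the estimate of StringTie and not a count of molecules. Reads on Gm27505, a short RNA within Neat1 described in the last section, can also be assigned to either gene.

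**Figure D3:**
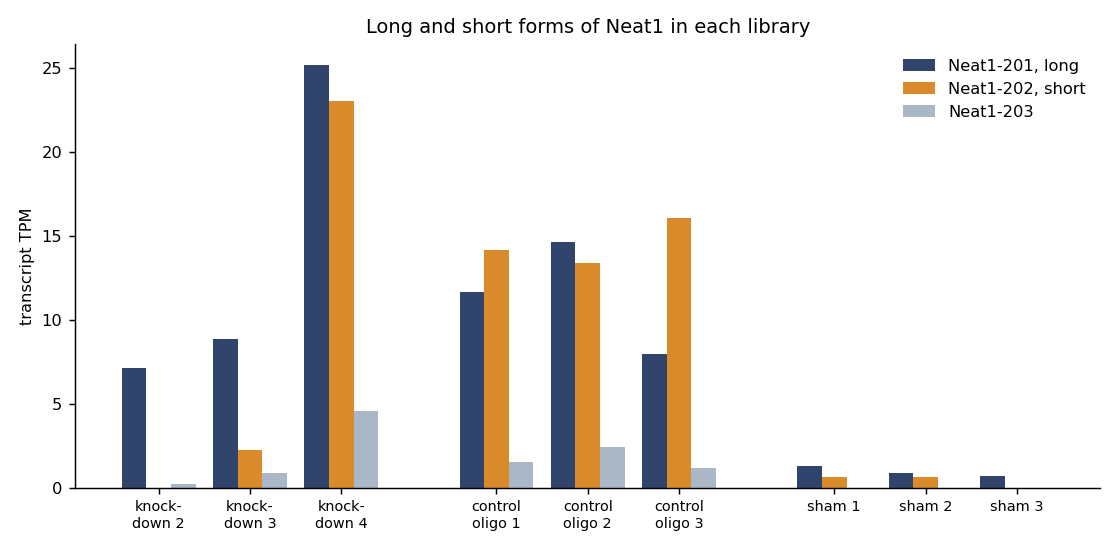
TPM of the 3 annotated Neat1 transcripts in each library, with knockdown left, control oligo in the middle and sham right. The long form (dark) exceeds the short form (orange) in all 3 knockdown libraries, and the short form exceeds the long one in control oligo replicates 1 and 3.

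Of the 15 listed paraspeckle proteins, 0 passed between knockdown and control oligo libraries. Against sham, 12 were higher and 1 lower in knockdown, and 12 were higher and 2 lower in control oligo libraries. Over all genes 52.7% were higher and 12.5% lower in knockdown, and 52.6% and 12.8% in control oligo libraries. After median-ratio scaling the counts were 6 higher and 3 lower in knockdown and 5 higher and 3 lower in control oligo libraries. Over all genes 22.7% were then higher and 27.1% lower in knockdown, and 26.1% and 29.2% in control oligo libraries. The list medians, 0.94 and 0.73 as deposited, stand beside 0.61 and 0.56 over all genes. Among those with the smallest p were the RNA-binding proteins Taf15, Ewsr1 and Hnrnph3. Taf15 measured 59.8, 77.0 and 66.0 TPM in knockdown, 54.5, 90.2 and 62.3 TPM in control oligo and 8.80, 6.402 and 6.01 TPM in sham libraries. It was 3.10 higher on the log2 scale in both MCAO groups (adjusted p = 1.06e-05 in knockdown and 1.42e-05 in control oligo libraries). Sfpq and Nono, which are needed to form paraspeckles and are named here for that role after their values were seen, differed from sham by 1.00 and 1.12 in knockdown (adjusted p = 0.00107 and 0.000178) and by 0.86 and 0.90 in control oligo libraries (adjusted p = 0.00567 and 0.000773). Sfpq did not pass after scaling, at 0.29 in knockdown (adjusted p = 0.0841) and 0.20 in control oligo libraries (adjusted p = 0.265), and Nono passed then in knockdown (0.41, adjusted p = 0.00975) but not in control oligo libraries (0.25, adjusted p = 0.0518).

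Malat1 moved the other way. It measured 49.5, 53.9 and 263 TPM in knockdown, 133, 264 and 91.1 TPM in control oligo and 1193, 837 and 569 TPM in sham libraries. Every MCAO library lay below every sham library, as for 14.2% of all genes in either group, and knockdown replicate 4 and control oligo replicate 2 were the highest MCAO libraries. The sham mean was 7.10 times the knockdown mean and 5.33 times the control oligo mean. The log2 difference from sham was -3.20 ± 0.61 in knockdown (SE, adjusted p = 0.00248) and -2.48 ± 0.38 in control oligo libraries (adjusted p = 0.000641), and -3.92 and -3.15 after scaling (adjusted p = 0.00244 and 0.000253). The difference of knockdown from control oligo libraries was -0.72 ± 0.70 (SE, adjusted p = 1), with -1.50 without knockdown replicate 4 (adjusted p = 0.776), -0.30 without knockdown replicate 2 (adjusted p = 1) and -0.30 without control oligo replicate 2 (adjusted p = 0.977). All 5 annotated Malat1 transcripts passed as lower in both MCAO groups, while 7.5% of all transcripts were lower in knockdown and 7.61% in control oligo libraries. Malat1-201, the form of 6983 bases shown above, carried 97.2% of Malat1 TPM in knockdown, 98.1% in control oligo and 96.3% in sham libraries. The other 4 were Malat1-202, Malat1-203, Malat1-204 and a transcript that the files give only by its ID. Malat1 and long Neat1 both end without a poly(A) tail, and long Neat1 was higher in MCAO libraries. Of other RNAs without a tail, 5 of 5 kept structural RNAs and 16 of 17 kept histone genes were lower in each MCAO group. Over all genes 12.5% were lower in knockdown and 12.8% in control oligo libraries. The part of the missing tail in these values was not tested. Data set and stroke cannot be told apart for Malat1.

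Of the 10 listed splicing factors of nuclear speckles and partners of Miat, 0 passed between knockdown and control oligo libraries. Against sham, 7 were higher and 0 lower in knockdown, and 8 were higher and 1 lower in control oligo libraries. The list medians were 1.07 in knockdown and 1.20 in control oligo libraries, beside 0.61 and 0.56 over all genes, of which 52.7% and 52.6% were higher. The shares of all genes lower were 12.5% and 12.8%. After scaling 5 were higher and 2 lower in each. Over all genes 22.7% were then higher and 27.1% lower in knockdown, and 26.1% and 29.2% in control oligo libraries. Srrm1, a scaffold protein of splicing complexes, measured 66.6, 69.5 and 87.5 TPM in knockdown, 67.4, 91.3 and 48.2 TPM in control oligo and 20.2, 16.4 and 12.3 TPM in sham libraries. Rnps1, Srsf2 and Sf1 were higher in both MCAO groups, by 1.63, 1.46 and 1.89 on the log2 scale in knockdown and by 1.59, 1.20 and 1.82 in control oligo libraries (adjusted p at most 0.000271). All 4 also passed after scaling.

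Meg3, the first of the maternal RNAs of the Dlk1-Dio3 region, measured 107, 185 and 399 TPM in knockdown, 402, 498 and 208 TPM in control oligo and 176, 116 and 79.9 TPM in sham libraries. The control oligo libraries all lay above the sham libraries, while the knockdown libraries overlapped both groups. Meg3 was 1.55 ± 0.36 higher in control oligo than in sham libraries on the log2 scale (SE, adjusted p = 0.005) and 0.89 ± 0.31 higher after median-ratio scaling (adjusted p = 0.0439), but 0.75 after scaling to the total of protein-coding genes (adjusted p = 0.095). The knockdown group differed from sham by 0.75 ± 0.47 (adjusted p = 0.189), by 1.20 without knockdown replicate 2 (adjusted p = 0.0421), by 0.25 without knockdown replicate 4 (adjusted p = 0.515) and by 0.48 without sham replicate 3 (adjusted p = 0.472). Set against control oligo libraries, knockdown libraries gave -0.80 ± 0.53 (SE, adjusted p = 1), with a range of -1.29 (without knockdown replicate 4) to -0.35 (without knockdown replicate 2). Of 11 kept Meg3 transcripts, 6 passed as higher in control oligo than in sham libraries, against 27.7% of all transcripts, and 0 passed in knockdown against sham. Meg3-209, of 14548 bases, was the only Meg3 transcript that passed in control oligo libraries also after scaling. It measured 39.1, 63.7 and 187 TPM in knockdown, 161, 218 and 109 TPM in control oligo and 54.2, 35.3 and 22.1 TPM in sham libraries. Its log2 difference from sham was 2.13 ± 0.38 in control oligo (SE, adjusted p = 0.0079) and 1.13 ± 0.61 in knockdown libraries (adjusted p = 0.193). Meg3-205, which ends before the genomic run of adenosines shown above, measured 33.5, 57.1 and 119 TPM in knockdown, 109, 135 and 31.1 TPM in control oligo and 60.5, 41.3 and 30.1 TPM in sham libraries, and its groups overlapped in each comparison. The other transcripts that passed in control oligo libraries as deposited, but not after scaling, were Meg3-201, Meg3-204, Meg3-206, Meg3-207 and Meg3-211. Those that did not pass were Meg3-202, Meg3-203, Meg3-205, Meg3-208 and Meg3-210.

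Rian, the snoRNA host, measured 609, 529 and 482 TPM in knockdown, 574, 911 and 374 TPM in control oligo and 443, 403 and 380 TPM in sham libraries. The knockdown libraries lay above the sham libraries, and control oligo replicate 3 lay below all sham libraries. The log2 difference from sham was 0.40 ± 0.16 in knockdown (SE, adjusted p = 0.0625) and 0.51 ± 0.27 in control oligo libraries (adjusted p = 0.134). It turned to -0.32 and -0.16 after median-ratio scaling (adjusted p = 0.064 and 0.587). Without knockdown replicate 4 the first was 0.47 (adjusted p = 0.00875), and without control oligo replicate 3 the second was 0.82 (adjusted p = 0.00775), while without control oligo replicate 2 it was 0.18 (adjusted p = 0.415). Knockdown against control oligo gave -0.11 ± 0.32 (SE, adjusted p = 1), with the sign turned to 0.21 without control oligo replicate 2 (adjusted p = 0.946).

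Rian transcripts were also summed by where they lie in the gene. Of 3 equal stretches of the gene, the 3′-most holds the midpoints of 11 transcripts, which summed to 580, 491 and 423 TPM in knockdown, 524, 832 and 346 TPM in control oligo and 287, 280 and 262 TPM in sham libraries. The other 9 summed to 28.4, 38.2 and 59.9 TPM in knockdown, 49.9, 79.1 and 27.8 TPM in control oligo and 156, 123 and 118 TPM in sham libraries. As deposited, the MCAO libraries thus all lay above the sham libraries for the 3′ transcripts, and all below for the others. Of all genes, 57.8% lay wholly higher and 14.2% wholly lower than sham in knockdown, and 56.2% and 14.2% in control oligo libraries. These sums were not scaled. Of the 8 kept 3′ transcripts, 3 were higher and 2 lower in each MCAO group than in sham libraries, the 2 lower ones being Rian-201 and Rian-218. Of the 9 others, all kept, 1 was higher and 4 were lower in knockdown, and 0 were higher and 5 lower in control oligo libraries. Over all transcripts 26.5% were higher and 7.5% lower in knockdown, and 27.7% higher and 7.61% lower in control oligo libraries. After scaling, the 3′ transcripts had 0 higher and 2 lower in knockdown and 2 higher and 2 lower in control oligo libraries, and the others had 0 higher and 6 lower in each. The split into 3 stretches was chosen after the values were seen, so these counts are a description.

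Rian-216, a spliced form that starts at the 5′ end of the gene, measured 1.83, 2.10 and 5.23 TPM in knockdown, 3.39, 8.53 and 2.10 TPM in control oligo and 36.2, 25.9 and 27.7 TPM in sham libraries. Its log2 difference from sham was -3.01 ± 0.34 in knockdown (SE, adjusted p = 0.00192) and -2.60 ± 0.42 in control oligo libraries (adjusted p = 0.00592). Rian-206, which lies within the first stretch of the gene, differed by -2.61 ± 0.31 (adjusted p = 0.00218) and -2.66 ± 0.46 (adjusted p = 0.00719). Rian-205, Rian-215, Rian-201 and Rian-218 were also lower in both MCAO groups, and Rian-210 in control oligo libraries, with the same directions past the threshold after scaling, when Rian-210 passed in knockdown libraries too (-1.20, adjusted p = 0.0469). At the 3′ end, Rian-202, whose polyadenylation signal is shown above, carried 46.2% of Rian TPM in knockdown, 41.1% in control oligo and 39.0% in sham libraries. It measured 287, 266 and 194 TPM in knockdown, 261, 305 and 197 TPM in control oligo and 164, 157 and 156 TPM in sham libraries, and was higher in both MCAO groups (log2 0.62, adjusted p = 0.0331 in knockdown, and 0.65, adjusted p = 0.025 in control oligo libraries). After scaling its differences were -0.10 and -0.01. Rian-204 measured 34.9, 107 and 76.2 TPM in knockdown, 120, 116 and 53.0 TPM in control oligo and 16.6, 21.1 and 13.1 TPM in sham libraries, and passed as higher in both groups (log2 1.92 ± 0.42, adjusted p = 0.0161, and 2.37 ± 0.35, adjusted p = 0.00447). After scaling it kept the call in control oligo (1.73, adjusted p = 0.009) but not in knockdown libraries (1.23, adjusted p = 0.0906). Rian-208 passed in control oligo libraries (2.53 ± 0.28, adjusted p = 0.00174) but not in knockdown (1.24 ± 0.54, adjusted p = 0.122), and the difference of knockdown from control oligo libraries, -1.29 ± 0.59, did not pass (adjusted p = 1). Rian-212 and Rian-213 were higher in knockdown than in sham libraries as deposited, and did not pass after scaling (0.51, adjusted p = 0.208, and -0.12, adjusted p = 0.562). Rian-203, Rian-209, Rian-211, Rian-217 and Rian-219 passed in neither MCAO group against sham as deposited. After scaling Rian-203 was lower in both (-1.76, adjusted p = 0.0183 in knockdown, and -1.16, adjusted p = 0.0373 in control oligo libraries). Rian-214 and Rian-220 reached 1 TPM but were not kept. Rian-211 stood at 169 TPM in knockdown replicate 2 and 254 TPM in control oligo replicate 2, against 13.9 to 32.4 TPM in the other 7 libraries.

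Mirg, the microRNA host, measured 25.2, 30.5 and 39.2 TPM in knockdown, 54.4, 67.1 and 17.2 TPM in control oligo and 22.5, 15.2 and 13.5 TPM in sham libraries. Every knockdown library lay above every sham library, and control oligo replicate 3 lay among the sham libraries. The log2 difference from sham was 0.86 ± 0.23 in knockdown (SE, adjusted p = 0.0113) and 1.21 ± 0.45 in control oligo libraries (adjusted p = 0.04), and 0.18 and 0.57 after median-ratio scaling (adjusted p = 0.551 and 0.268). The knockdown call was lost without sham replicate 3 (adjusted p = 0.0507). The control oligo call was lost without any of sham replicates 2 and 3 and control oligo replicates 1 and 2 (adjusted p of 0.103 to 0.13). The difference of knockdown from control oligo libraries was -0.35 ± 0.49 (SE, adjusted p = 1).

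Mirg-207, the 3′ form of 694 bases with the polyadenylation signal shown above, measured 10.4, 10.7 and 15.9 TPM in knockdown, 25.4, 28.0 and 7.38 TPM in control oligo and 0.350, 1.72 and 1.22 TPM in sham libraries. Its log2 difference from sham was 2.70 ± 0.33 in knockdown (SE, adjusted p = 0.00245) and 3.21 ± 0.55 in control oligo libraries (adjusted p = 0.00674), and 2.22 and 2.77 after scaling (adjusted p = 0.00912 and 0.013). Mirg-203, which lies at the 5′ end of the gene, was listed at 0 in all knockdown libraries and in control oligo replicates 1 and 3. It measured 0.944 TPM in control oligo replicate 2 and 6.10, 4.05 and 3.59 TPM in sham libraries. It passed as lower in both MCAO groups (adjusted p = 0.00131 in knockdown and 0.00615 in control oligo libraries). Mirg-209 and Mirg-211 were higher than in sham by 1.61 and 1.70 in knockdown (adjusted p = 0.0028 and 0.00627) and by 1.87 and 2.02 in control oligo libraries (adjusted p = 0.0132 and 0.00591). Mirg-201, Mirg-205, Mirg-208, Mirg-210 and Mirg-212 passed in neither MCAO group, and Mirg-204 reached 1 TPM but was not kept. The 3 transcripts with midpoints in the 3′-most of 3 equal stretches summed to 14.9, 17.1 and 22.9 TPM in knockdown, 34.6, 41.4 and 10.4 TPM in control oligo and 1.54, 2.36 and 1.94 TPM in sham libraries. The other 9 summed to 10.4, 13.5 and 16.3 TPM in knockdown, 19.8, 25.6 and 6.79 TPM in control oligo and 20.96, 12.8 and 11.5 TPM in sham libraries, and there the groups overlapped.

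**Figure D4:**
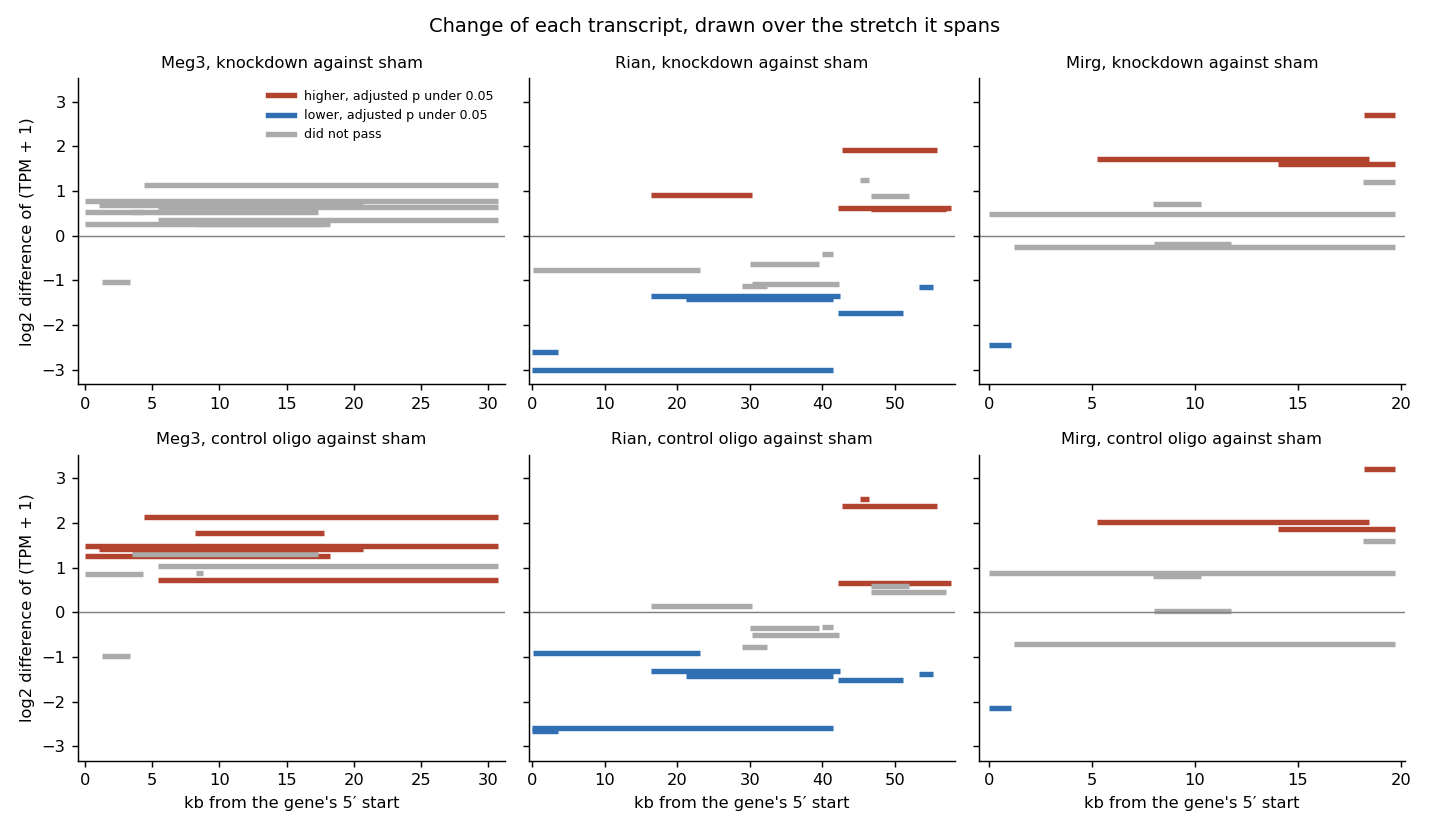
Log2 difference of (TPM + 1) from sham (y axis) of each kept transcript of Meg3, Rian and Mirg, drawn over the stretch it spans in kb from the 5′ start of its gene (x axis), for knockdown above and control oligo below. Red and blue mark transcripts past an adjusted p of 0.05; Rian and Mirg hold both red and blue lines in both rows, and Meg3 holds 6 red lines for control oligo and 0 for knockdown.

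The share of a gene's aligned bases that lie 3′ of the midpoint of its exons was set beside this for all genes. For Mirg it was 85.9% ± 2.15 in knockdown and 86.7% ± 2.92 in control oligo libraries, against 51.9% ± 3.00 in sham libraries (SD, n = 3 each). For Rian it was 86.5% ± 3.71 in knockdown and 88.6% ± 1.94 in control oligo libraries, against 74.2% ± 3.15 in sham libraries. Meg3 stood at 54.2% and 57.3%, against 47.9% in sham, and Miat at 59.9% and 60.5%, against 49.99% in sham. Over 7114 kept genes with 5 or more transcripts the median was 66.9% in knockdown and 68.7% in control oligo, against 58.0% in sham libraries, so the median gene had a larger 3′ share in MCAO libraries too. Its part in the differences between transcripts was not tested. Neat1 stood at 47.2% in knockdown and 41.6% in control oligo, against 47.3% in sham libraries, and Pantr1 at 46.8% and 34.4%, against 52.1%. Each exon of each transcript enters with a single mean depth. The values of Mirg, Rian and the other genes thus also rest on the estimated split between overlapping transcripts. They are not a separate measure from the transcript values above. The Neat1 value restates the estimated split between its forms and is not a separate measure of where reads lie. The Malat1 value was 49.97% in knockdown and 49.98% in control oligo, against 49.97% in sham libraries, since 1 unspliced transcript with a single mean depth carries it.

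The paternal protein-coding genes of the Dlk1-Dio3 region were low in this cortex. Dlk1 reached at most 0.818 TPM in knockdown, 0.639 TPM in control oligo and 0.0324 TPM in sham libraries and was not kept. Dio3, a deiodinase that inactivates thyroid hormone, measured 1.80, 3.12 and 0.619 TPM in knockdown, 0.669, 1.12 and 1.02 TPM in control oligo and 0.425, 0.311 and 0.221 TPM in sham libraries. It was higher than in sham in knockdown (log2 1.01, adjusted p = 0.0264) and control oligo libraries (0.55, adjusted p = 0.019), and did not pass after scaling (adjusted p = 0.0879 and 0.107). Rtl1, a retrotransposon-derived gene, measured 0.847, 1.17 and 2.22 TPM in knockdown, 1.71, 2.63 and 2.47 TPM in control oligo and 4.57, 3.24 and 2.33 TPM in sham libraries. It was lower than in sham in knockdown (log2 -0.87, adjusted p = 0.0254), and did not pass in control oligo libraries (-0.40, adjusted p = 0.156). After scaling it was lower in both (-1.37, adjusted p = 0.00533 in knockdown, and -0.90, adjusted p = 0.00919 in control oligo libraries). The whole list, Meg3, Rian and Mirg included, thus had 2 of 5 kept genes higher and 1 lower in knockdown, and 3 higher and 0 lower in control oligo libraries, beside 52.7% higher and 12.5% lower over all genes in knockdown and 52.6% and 12.8% in control oligo libraries. After scaling 0 were higher and 1 lower in knockdown, and 1 higher and 1 lower in control oligo libraries. Over all genes 22.7% were then higher and 27.1% lower in knockdown, and 26.1% and 29.2% in control oligo libraries.

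Miat measured 17.3, 39.0 and 44.6 TPM in knockdown, 39.7, 75.6 and 24.7 TPM in control oligo and 20.05, 12.0 and 16.7 TPM in sham libraries. The control oligo libraries lay above the sham libraries, and knockdown replicate 2 lay among them. The log2 difference from sham was 0.93 ± 0.35 in knockdown (SE, adjusted p = 0.0457) and 1.35 ± 0.36 in control oligo libraries (adjusted p = 0.0107), and 0.24 and 0.71 after median-ratio scaling (adjusted p = 0.628 and 0.106). The knockdown call was lost without any 1 of the sham replicates, knockdown replicate 3 or knockdown replicate 4 (adjusted p of 0.0552 to 0.147). Set against control oligo libraries, knockdown libraries gave -0.42 ± 0.49 (SE, adjusted p = 1), with -0.0081 without control oligo replicate 2 and -0.79 without control oligo replicate 3 (adjusted p = 1 in both). Miat-201 and Miat-205 are the long forms, of 8758 and 9163 bases. Miat-201 measured 9.04 TPM in knockdown replicate 2 and was listed at 0 in knockdown replicates 3 and 4, against 35.6, 61.4 and 10.6 TPM in control oligo and 12.0, 6.93 and 0.0337 TPM in sham libraries. Miat-205 measured 6.38, 34.6 and 37.9 TPM in knockdown, 0.535, 2.64 and 11.2 TPM in control oligo and 0.900, 1.22 and 13.0 TPM in sham libraries. Miat-205 was the higher form in knockdown replicates 3 and 4, control oligo replicate 3 and sham replicate 3. Miat-201 was the higher form in knockdown replicate 2 and in replicates 1 and 2 of the control oligo and sham groups, so which form was higher differed within each group. The forms overlap over nearly the whole gene, so the split between them is an estimate and uncertain. Knockdown differed from control oligo libraries by -3.79 ± 1.07 on the log2 scale for Miat-201 (SE), which did not pass (adjusted p = 1), nor did Miat-205 (2.41 ± 0.95, adjusted p = 1). Miat-202 and Miat-206 passed in no comparison, and Miat-204 reached 1 TPM but was not kept.

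Pantr1 measured 77.6, 83.9 and 56.4 TPM in knockdown, 81.2, 23.3 and 63.7 TPM in control oligo and 34.0, 40.3 and 64.2 TPM in sham libraries. The groups overlapped in each comparison, with control oligo replicate 2 the lowest library of all. The log2 difference from sham was 0.67 ± 0.25 in knockdown (SE, adjusted p = 0.0461) and 0.15 ± 0.43 in control oligo libraries (adjusted p = 0.77), and -0.036 and -0.50 after median-ratio scaling (adjusted p = 0.926 and 0.433). The knockdown call was lost without any 1 of sham replicates 1 and 2 and knockdown replicates 2 and 3 (adjusted p of 0.112 to 0.157). The sign of the control oligo difference turned without sham replicate 1 (-0.04) and without control oligo replicate 1 (-0.20) or 3 (-0.03). Knockdown against control oligo gave 0.52 ± 0.45 (SE, adjusted p = 1), and -0.01 without control oligo replicate 2 (adjusted p = 1). Pantr1-202, of 506 bases, carried 63.4% of Pantr1 TPM in knockdown, 48.8% in control oligo and 58.6% in sham libraries, and stood at 3.62 TPM in control oligo replicate 2, against 16.7 to 59.4 TPM in the other 8 libraries. Pantr1-206 and Pantr1-212 were higher in control oligo than in sham libraries (log2 1.19, adjusted p = 0.0492, and 1.25, adjusted p = 0.00926). After scaling Pantr1-206 did not pass (0.69, adjusted p = 0.256) and Pantr1-212 did (0.89, adjusted p = 0.0443). Pantr1-207, Pantr1-208, Pantr1-209, Pantr1-210 and Pantr1-211 passed in no comparison as deposited, although Pantr1-208 was lower than in sham libraries after scaling (-0.91, adjusted p = 0.0327 in knockdown, and -0.92, adjusted p = 0.018 in control oligo libraries), and Pantr1-205 reached 1 TPM but was not kept.

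Among 8 protein-coding neighbours of Neat1, Malat1, Miat and Pantr1, 0 passed between knockdown and control oligo libraries. Against sham 6 were higher in knockdown and 5 in control oligo libraries, and 0 were lower in either. Over all genes 52.7% were higher and 12.5% lower in knockdown, and 52.6% and 12.8% in control oligo libraries. The list medians were 0.90 in knockdown and 0.72 in control oligo libraries, beside 0.61 and 0.56 over all genes. After scaling the counts were 3 higher and 1 lower in knockdown and 2 higher and 1 lower in control oligo libraries. Over all genes 22.7% were then higher and 27.1% lower in knockdown, and 26.1% and 29.2% in control oligo libraries. Ltbp3, a TGF-beta binding protein gene near Malat1, measured 6.85 to 10.2 TPM in knockdown and 6.99 to 11.4 TPM in control oligo libraries, against 1.29 to 2.16 TPM in sham libraries, and passed also after scaling. Pou3f3, named as the neighbour of Pantr1 and not for its p, measured 28.8, 19.2 and 19.4 TPM in knockdown, 19.9, 23.1 and 19.6 TPM in control oligo and 20.4, 17.0 and 20.02 TPM in sham libraries. It did not pass as deposited (log2 0.20, adjusted p = 0.359 in knockdown, and 0.12, adjusted p = 0.5 in control oligo libraries) and was lower after scaling (-0.49, adjusted p = 0.0496, and -0.52, adjusted p = 0.0117).

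Several of the genes also shared their 3 highest of the 6 MCAO libraries, a set that crossed the oligo groups. Control oligo replicates 1 and 2 and knockdown replicate 4 were the 3 highest libraries for Malat1, from which the set was taken. They were also the 3 highest for Neat1, Meg3, Miat and Mirg, though their order within the set differed between genes. Over all genes this held for 1574 of 17080 (9.22%). Knockdown replicate 2 was the lowest library for Neat1, Malat1, Meg3 and Miat. The set was taken after the Malat1 values were seen, and Malat1 meets it by definition, so this is a description. The highest library was 4.37 times the lowest in the median over the 7 genes, and 1.81 times over all genes. Rian and Pantr1 did not share the set, with control oligo replicate 3 the lowest for Rian and control oligo replicate 2 for Pantr1. The same 3 libraries were highest for 4 of 10 speckle and Miat-binding factors, 4 of 15 other long noncoding RNAs and 2 of 15 paraspeckle proteins. Srrm2, a core protein of nuclear speckles named after its values were seen, measured 37.6, 47.2 and 159 TPM in knockdown and 120, 172 and 60.3 TPM in control oligo libraries. Of these 3 libraries, knockdown replicate 4 had the most S100a8 and control oligo replicate 2 the least among MCAO libraries. The part of neutrophil RNA or of other differences between libraries in this set was not tested.

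**Figure D5:**
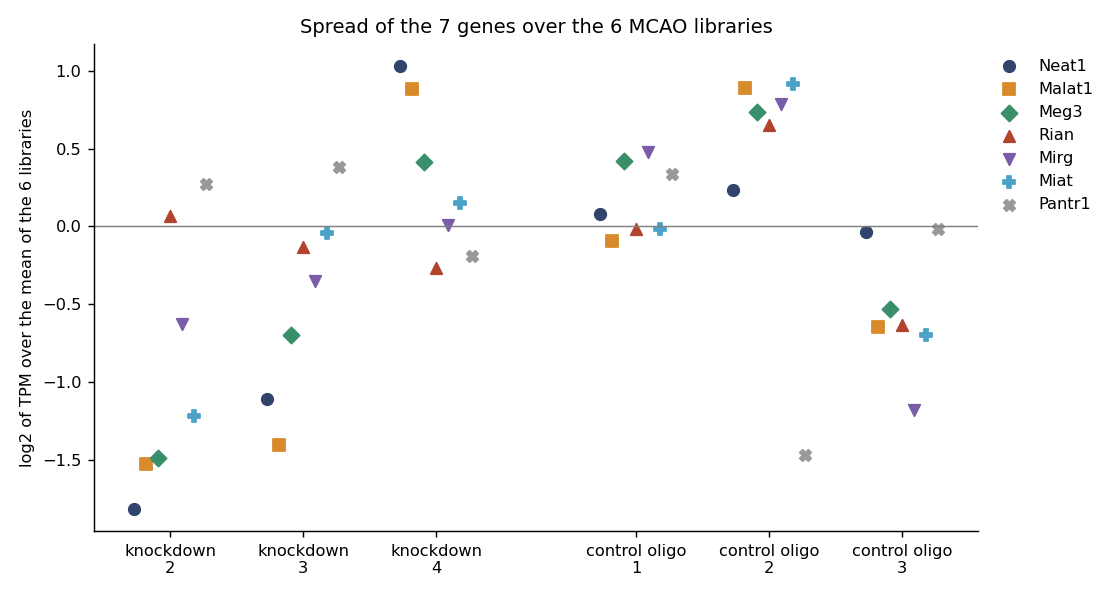
Log2 of each gene's TPM over its mean in the 6 MCAO libraries (y axis), with the knockdown libraries left and the control oligo libraries right and 1 symbol for each gene. Neat1, Malat1 and Meg3 lie above 0 in knockdown replicate 4 and control oligo replicate 2 and below 0 in knockdown replicates 2 and 3 and control oligo replicate 3.

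Of 22 other long noncoding RNAs listed, 15 were kept, of which 0 passed between knockdown and control oligo libraries. Against sham, 4 were higher and 5 lower in each MCAO group, with list medians of 0.00 in knockdown and -0.04 in control oligo libraries, beside 0.61 and 0.56 over all genes. As deposited, 52.7% of all genes were higher and 12.5% lower in knockdown, and 52.6% and 12.8% in control oligo libraries. After scaling the counts were 1 higher and 8 lower in knockdown and 2 higher and 10 lower in control oligo libraries. Over all genes 22.7% were then higher and 27.1% lower in knockdown, and 26.1% and 29.2% in control oligo libraries. Snhg14, the host of the snoRNAs of the Prader-Willi region, measured 21.03, 20.2 and 52.4 TPM in knockdown and 42.4, 41.3 and 25.1 TPM in control oligo libraries, against 241, 181 and 158 TPM in sham libraries. Its log2 difference from sham was -2.71 in knockdown (adjusted p = 0.000408) and -2.40 in control oligo libraries (adjusted p = 6.33e-05). Lncpint, a p53-induced RNA, differed by -2.56 (adjusted p = 8.22e-05) and -2.89 (adjusted p = 7.88e-05). Snhg11, a brain snoRNA host, was higher by 1.21 in knockdown (adjusted p = 0.0259) and 2.07 in control oligo libraries (adjusted p = 0.000339), but did not pass in knockdown after scaling (0.50, adjusted p = 0.35). Direction thus differed among these RNAs as it did between Neat1 and Malat1.

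Markers of the cell types that cortex can hold were set beside these values, and 0 of them passed between knockdown and control oligo libraries. Against sham, all 3 inhibitory neuron, all 3 endothelial and all 3 kept neutrophil markers were higher in each MCAO group. Of 5 excitatory neuron markers, 3 were higher and 0 lower in knockdown, and 3 higher and 1 lower in control oligo libraries. Of 3 markers of all neurons, 1 was higher in knockdown and 2 in control oligo libraries. In each MCAO group 2 of 4 astrocyte markers were higher and 1 lower, 3 of 4 oligodendrocyte markers were higher, and 3 of 4 microglia markers were higher and 1 lower. Of 4 striatal markers, 3 were higher in knockdown and 2 in control oligo libraries, and the 1 kept choroid plexus marker, Ttr, passed in control oligo libraries alone, with the difference between the groups not passing. These counts stand beside 52.7% higher and 12.5% lower over all genes in knockdown, and 52.6% and 12.8% in control oligo libraries. After scaling, all 3 neutrophil markers were still higher in each MCAO group, 1 of 3 inhibitory neuron and 1 of 3 endothelial markers were higher, and 0 choroid plexus markers passed. Among excitatory neuron markers 1 was then higher and 2 lower in knockdown, and 2 higher and 2 lower in control oligo libraries. Markers of all neurons and of oligodendrocytes each had 1 higher and 1 lower in both groups. Astrocyte markers had 0 higher and 1 lower in knockdown, and 1 higher and 2 lower in control oligo libraries. Microglia markers had 1 higher and 1 lower in knockdown, and 2 higher and 1 lower in control oligo libraries, and striatal markers 3 higher and 1 lower in knockdown, and 2 higher and 1 lower in control oligo libraries. Over all genes 22.7% were higher and 27.1% lower in knockdown after scaling, and 26.1% and 29.2% in control oligo libraries. The part of cell makeup in the values of the 7 genes was not tested.

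Over the 9 libraries, the genes with the pattern most like each member, by Pearson correlation of log2(TPM + 1) among 10509 genes, were Col4a1 (r = 0.990) and Col4a2 (r = 0.989) for Neat1, Mdn1 (r = 0.985) and Wdfy3 (r = 0.981) for Malat1, and Smpd4 (r = 0.980) and Amy1 (r = 0.974) for Meg3. They were Papd5 (r = 0.988) and Ablim1 (r = 0.967) for Rian, Mast2 (r = 0.977) and Tial1 (r = 0.973) for Mirg, Zcchc8 (r = 0.965) and Col16a1 (r = 0.959) for Miat, and Sp3os (r = 0.924) and Mapk4 (r = 0.885) for Pantr1. These values describe 9 libraries that fall into 2 data sets.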

How the data were processed

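The 9 libraries were deposited as StringTie transcript tables. Per the file headers, they were made with StringTie 1.3.4d in estimation mode, with no strand option; the submitters' processing notes name HISAT2 2.0 and GRCm38 (mm10). The deposited tables give a mean coverage per base, an FPKM and a TPM for each transcript, and no read counts, so aligned bases stand in for depth (coverage over FPKM for a library, coverage times length for a gene). Without strand, reads of overlapping genes on opposite strands cannot be told apart.

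Gene TPM is the sum over transcripts. Features with a TPM of at least 1 in at least 3 of 9 libraries were kept. limma 3.58.1 in R 4.3.3 was run for each comparison on the 6 libraries of its 2 groups (trended variance, log2(TPM + 1), a scale that understates changes of low genes), with Benjamini-Hochberg adjustment over all kept genes or transcripts and a threshold of 0.05. Shares were compared by exact two-sided permutation tests. The code was tested on simulated data. Tables were handled with Python 3.11.15, pandas 2.3.3 and numpy 2.4.6 and plotted with matplotlib 3.10.9. Sequences came from GENCODE M21 and RefSeq.

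The 7 genes and the lists were chosen with earlier results of these data known. The text names the 7 genes, all their transcripts that reached a TPM of 1, up to 4 genes of each list with the smallest p, and for likeness the 2 genes with the highest correlation; exceptions are marked, and 1 listed gene is not reported here by name. Alternatives were FPKM, median-ratio scaling, scaling to nuclear protein-coding genes, a pseudocount of 0.1, no filter, 1 fit of all 9 libraries, a replicate block, the long Neat1 share of aligned bases, leaving out each library and, chosen after seeing the data, Rian without Rian-211.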

Additional observations from a re-analysis of the deposited data

How the results depend on the processing

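Between knockdown and control oligo libraries 0 of the 7 genes passed under every alternative run. Over all genes 2 passed there, against 13 with no filter, 4 with all 9 libraries in 1 fit, 0 with the replicate block and 1 to 3 without 1 library. Of transcripts 27 passed, against 13 with FPKM, 68 with a pseudocount of 0.1, 48 with all 9 libraries, 0 with the replicate block and 2 to 15 without 1 library. Without control oligo replicate 2 the signs turned for Rian (0.21), Mirg (0.019) and Pantr1 (-0.0059), in ranges of -0.43 to 0.21, -0.93 to 0.019 and -0.0059 to 0.87 without 1 library. Between knockdown and sham libraries 5 of the 7 genes passed, against 2 with FPKM, 2 with median-ratio scaling, 3 with the protein-coding total, 0 with no filter (adjusted p = 0.067 for Neat1 and 0.0517 for Malat1, limma), 2 with all 9 libraries, 6 with the replicate block, which added Rian (0.53, adjusted p = 0.0347), and 3 to 5 without 1 library. Transcript calls there numbered 13562, against 3779 with the replicate block and 8777 to 14409 without 1 library (8777 without sham replicate 3). There the signs turned for Rian with FPKM (-0.23), median-ratio scaling (-0.32) and the protein-coding total (-0.50, adjusted p = 0.00892, limma), for Pantr1 with median-ratio scaling (-0.036) and the protein-coding total (-0.21), and for Meg3 with the protein-coding total (-0.14). Between control oligo and sham libraries 5 of the 7 passed, against 3 with FPKM, 3 with median-ratio scaling, 2 with the protein-coding total, 2 with no filter and 4 to 6 without 1 library. Transcript calls there numbered 14080, against 9234 (without sham replicate 3) to 14494 without 1 library. There the signs turned for Rian with FPKM (-0.091), median-ratio scaling (-0.16) and the protein-coding total (-0.30), and for Pantr1 with FPKM (-0.43), median-ratio scaling (-0.50) and the protein-coding total (-0.65), in a range of -0.20 to 0.68 without 1 library. Neat1 and Malat1 kept their directions against sham under every alternative run. The difference in the long Neat1 share between knockdown and sham libraries ran from -14.5 to 10.2 points without 1 library, with the sign turned without knockdown replicate 4 (10.2) and without sham replicate 3 (10.03). Rian without Rian-211 gave the same calls. In both comparisons with the knockdown group the replicate block rests on replicates 2 and 3 alone, the only numbers that both groups share. Apart from this and the named values the cause of each change was not tested. Same-numbered libraries deviated together with r between -0.07 and 0.23, and differently numbered ones with r between -0.24 and 0.29. With 3 libraries in each group, these values cannot decide whether the numbers pair the samples. Depth limits Neat1 most in sham libraries.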

Other observations

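A short annotated RNA of 110 bases, Gm27505, lies on the same strand within Neat1, 731 bases from its 5′ start. It was listed at 0.408, 94.0 and 283 TPM in knockdown replicates 2, 3 and 4, at 139, 209 and 104 TPM in control oligo replicates 1, 2 and 3, and at 0.231, 0.262 and 0.220 TPM in sham replicates 1, 2 and 3. Reads of this stretch can be assigned to either gene. Aligned bases on it numbered 113, 27717 and 79318 in knockdown replicates 2, 3 and 4. In control oligo replicates 1, 2 and 3 they numbered 38793, 59486 and 32313, against 59.9 to 63.9 in sham libraries. The part of these reads in the values of Neat1, of its forms and of their shares was not tested. Gm27300, of 97 bases within Meg3, stood at 41.4 TPM in control oligo replicate 2 and at 0.0932 to 0.450 TPM in the other 8 libraries. Both were named after their values were seen.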
